A study of Mus musculus with 6 samples.

Results

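The 10 hypoxia-responsive genes described here were Hif1a, Epas1, Egln1, Egln3, Vegfa, Adm, Bnip3, Ankrd37, Car9 and Ndrg1. They are the genes of the hypoxia-inducible factor (HIF) subunits and well-known HIF targets outside glycolysis, and they were found by symbol among the 24470 genes of the count table. All 10 were present and all 10 passed the filter on low counts. RNA sequencing was performed on mouse testes collected at embryonic day 12.5 (E12.5), in 3 control and 3 Ppp1r3c conditional knockout (cKO) samples. Control embryos were Ppp1r3c f/f, with floxed alleles and no Cre. The cKO embryos were Sf1-Cre Ppp1r3c f/f, in which a transgene with Nr5a1 (Sf1) sequences drives Cre in Sertoli cell progenitors and other somatic cells of the gonad, so germ cells are not expected to carry the deletion. Both lines were kept on a C57BL/6 background, and each sample pooled 2 gonadal pairs. Ppp1r3c encodes a glycogen-targeting partner of protein phosphatase 1, through which glycogen synthase is activated.

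Cells sense oxygen through the stability of the HIF alpha subunits, among them the products of Hif1a and Epas1 (HIF-2 alpha). When oxygen is present, prolyl hydroxylases of the Egln family mark the alpha subunit for destruction through the von Hippel-Lindau protein. When oxygen is scarce, the alpha subunit persists, pairs with ARNT and binds short DNA elements at genes of blood vessel growth, glycolysis, pH control and mitochondrial turnover. Much of this control acts on the protein, so the mRNA of an alpha subunit does not report its activity, while the mRNA of its targets is the usual readout. In the fetal testis, VEGF signals also take part in vessel patterning during cord formation.

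Library totals ranged from 16139487 to 44145158 counts, and the 10 genes together took 12580 to 33263 counts of a library. The targeted gene was at 24.4, 22.1 and 22.9 CPM (counts per 1000000 of the library total, scaled by TMM, a normalization between libraries) in control replicates 1 to 3. It was at 4.71, 5.37 and 5.96 CPM in cKO replicates 1 to 3 (log2 fold change -2.11, edgeR FDR 0.000126), as the labels imply. FDR is the p adjusted by the Benjamini-Hochberg method over all tested genes, and a gene with an FDR below 0.05 is termed called. The library of cKO replicate 3 stood apart. Xist, the RNA that silences an X chromosome in XX cells, had 12534 counts there (379 CPM) and 6 to 41 counts in each of the other 5 libraries. Together, 4 Y-linked genes summed to 220 CPM in that library and 258 to 277 CPM elsewhere. The summed level of 7 pre-granulosa markers, genes of the supporting cells of the ovary, was 321 CPM there and 125 to 139 CPM elsewhere. Markers of the mesonephros, 7 genes, summed to 171 CPM there and 106 to 122 CPM elsewhere, and 6 fetal Leydig markers to 208 CPM there and 312 to 527 CPM elsewhere. Its label says testis. Results of the 10 genes that rest on it are therefore given with and without it. Counts of genes in the related lists and all correlations include it unless stated.

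None of the 10 hypoxia-responsive genes was called between cKO and control testes at an FDR below 0.05 by edgeR's quasi-likelihood test over 15577 genes. The background was 6 called genes, or 0.0385%. DESeq2 also called 0 of the 10 (111 genes, or 0.779% of those with an adjusted p, in the whole table), and limma-voom called 0 (0.0449% of all). At an unadjusted edgeR p under 0.05 there were 2 genes, Vegfa and Adm, where 11.4% of all tested genes passed. DESeq2 gave 3 at that level, with Ndrg1 added, against 8.25% of all genes, and limma-voom gave 1, Vegfa, against 12.5%. Without cKO replicate 3 edgeR gave 1, Adm, against 7.83% of all genes, and DESeq2 gave 0, against 5.35%. The groups did not overlap for 4 of the 10 genes (Hif1a, Egln1, Vegfa and Adm), all of them higher in every cKO sample, against 8.42% of all tested genes. No gene of the 10 was lower in every cKO sample, against 7.17%. Without cKO replicate 3, a count added after the data were seen, the same 4 genes were higher in both remaining cKO samples than in any control, against 11.9% of all tested genes, and 0 were lower, against 10.9%. Estimates were above 0 for 8 of the 10 genes, against 49.1% of all tested genes, and for 7 without cKO replicate 3, against 48.7% of all. Leaving out single control samples gave 6 to 8 genes. The log2 fold changes ran from -0.09 to 1.45 with a median of 0.09, whereas the median of all tested genes was -0.0034. Where single values were compared by an exact permutation test, which was two-sided, the smallest p that 3 and 3 samples allow is 0.1.

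**Figure D1:**
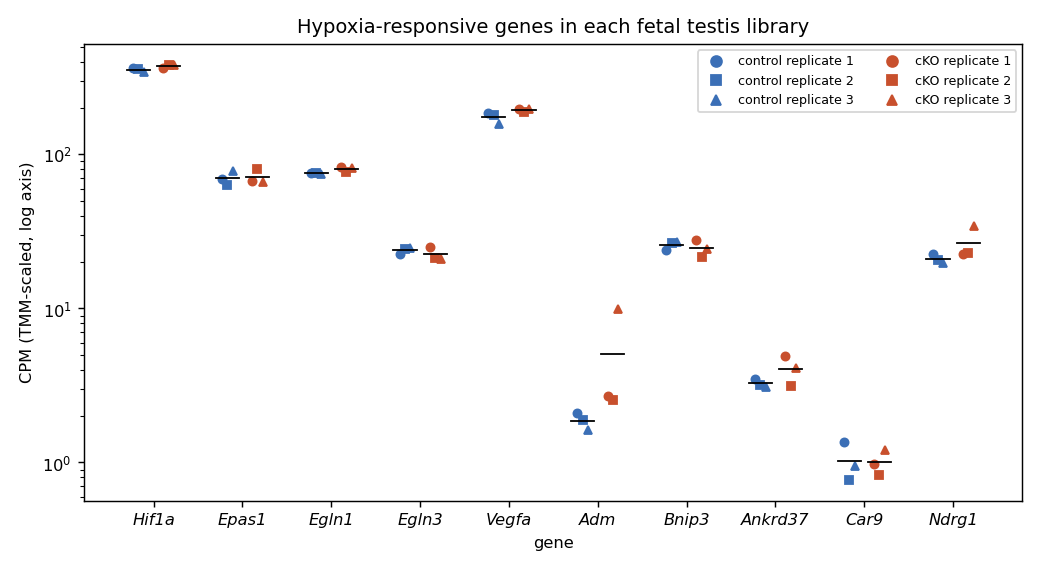
Level of each hypoxia-responsive gene (CPM with TMM-scaled library sizes, log axis) in the 3 control and 3 cKO libraries; points are single libraries, symbols mark the replicate number and black bars the group mean. Most genes had overlapping or closely adjoining groups, and Adm and Ndrg1 were highest in cKO replicate 3, at 9.92 and 34.1 CPM.

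To follow the pathway from its start, the alpha subunits were examined first. Hif1a (chromosome 12, 73901324 to 73947554, plus strand; all coordinates are those of the deposited table, build mm10) was at 366, 357 and 343 CPM in control replicates 1 to 3 and at 367, 382 and 381 CPM in cKO replicates 1 to 3. The lowest cKO sample lay only just above the highest control sample. In edgeR the log2 fold change was 0.08 (SE 0.0502, FDR 0.550), and its 95% interval of 0.980-fold to 1.15-fold included no change. In the GENCODE M21 annotation an exon of Hif1a overlaps the gene model Gm49321 on the same strand. The counts were made on RefSeq genes, and whether this overlap affected those of Hif1a was not tested.

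Epas1 (chromosome 17, 86753864 to 86833410, plus strand), whose product is best known from endothelial and other vascular cells, was at 69.3, 63.2 and 78.5 CPM in control samples. It was at 67.2, 80.2 and 66.4 CPM in cKO samples. The groups overlapped fully, and edgeR gave 0.02 on the log2 scale (SE 0.0994, FDR 0.962) and a 95% interval of 0.868-fold to 1.18-fold. Its sign turned when control replicate 2 (-0.06) or cKO replicate 2 (-0.07) was left out. The summed level of 10 endothelial markers was 871, 770 and 814 CPM in control and 757, 884 and 795 CPM in cKO samples, so that the cKO sample highest in Epas1 was also highest in these markers, while the control sample highest in Epas1, replicate 3, was not. Their part in the level of Epas1 was not tested.

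Among the hydroxylases that limit HIF, Egln1 and Egln3 are themselves HIF targets, which makes them a feedback readout. Egln1 (PHD2, the main oxygen sensor in most cells; chromosome 8, 124908587 to 124949254, minus strand) was at 75.9, 75.6 and 74.8 CPM in control samples. It was at 83.0, 76.6 and 82.1 CPM in cKO samples. The control samples of Egln1 differed by a coefficient of variation of 0.764%, the lowest of the 10 genes, and every cKO sample lay above them. However, cKO replicate 2 exceeded control replicate 1 by little. Their counting intervals (exact Poisson, 95%, counting error only), at 73.8 to 79.6 and 71.7 to 80.3 CPM, overlapped. The estimate was 0.10 on the log2 scale (SE 0.0576, edgeR FDR 0.548), with a 95% interval of 0.977-fold to 1.17-fold.

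Egln3 (PHD3, a strongly hypoxia-inducible member of the family; chromosome 12, 54178981 to 54203874, minus strand) was at 22.7, 24.5 and 24.6 CPM in control samples. It was at 25.1, 21.4 and 20.9 CPM in cKO samples. The groups overlapped, as cKO replicate 1 was the highest of all samples while the other cKO samples were the lowest. This gave a log2 fold change in edgeR of -0.09 (SE 0.0889, FDR 0.712), with a 95% interval of 0.817-fold to 1.08-fold. Both hydroxylase genes therefore had intervals that included no change, and their estimates had opposite signs. The ratio of Egln1 to Egln3, taken per kilobase of exon, was 2.34 ± 0.123 (SD, n = 3) in control and 2.67 ± 0.228 (SD, n = 3) in cKO testes (exact permutation p 0.2).

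Among secreted factors, Vegfa (chromosome 17, 46016993 to 46032377, minus strand), the main growth factor for blood vessels, was at 186, 180 and 158 CPM in control samples. It was at 197, 188 and 197 CPM in cKO samples. All cKO samples were above all control samples, but cKO replicate 2 exceeded control replicate 1 by little. Its log2 fold change was 0.15 (SE 0.0655, unadjusted edgeR p 0.0457, FDR 0.434), with a 95% interval of 0.0036 to 0.30. Control replicate 3 set much of this estimate: without it the log2 fold change was 0.08. Without cKO replicate 3 it was 0.14 (unadjusted edgeR p 0.109).

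Adm (adrenomedullin, a vasodilator peptide; chromosome 7, 110627669 to 110629819, plus strand) was at 2.09, 1.88 and 1.63 CPM in control samples. It was at 2.72, 2.56 and 9.92 CPM in cKO samples. The value in cKO replicate 3 was 3.65 times that of the next highest library, and its counting interval (exact Poisson, 95%, counting error only) of 8.88 to 11.1 CPM did not meet that of cKO replicate 1, at 2.23 to 3.28 CPM. For Adm the log2 fold change was 1.45 (SE 0.495, unadjusted edgeR p 0.0163, FDR 0.380). Without cKO replicate 3 it was 0.51 (unadjusted edgeR p 0.0460, edgeR FDR 0.633, unadjusted DESeq2 p 0.0933). The means were then 1.87 CPM in control and 2.64 CPM in the remaining cKO samples. These rested on 34 to 83 counts in control and 92 and 109 counts in cKO libraries, and the counting interval of control replicate 1, at 1.45 to 2.93 CPM, overlapped those of both cKO libraries.

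Ndrg1 (a stress-induced gene used as a hypoxia marker in many tissues; chromosome 15, 66929318 to 66969641, minus strand) was at 22.7, 20.8 and 19.6 CPM in control samples. It was at 22.5, 22.8 and 34.1 CPM in cKO samples. As for Adm, cKO replicate 3 was the highest library, and the other cKO samples lay close to the top of the control range. With that library edgeR gave a log2 fold change of 0.34 (SE 0.154, FDR 0.447), and without it 0.11 (FDR 0.795). Across the 6 samples the log2 CPM of Adm and Ndrg1 had a Pearson correlation of 0.99, a description in which the same single library lies far from the others. That library was also the one with Xist and raised pre-granulosa markers, and their part in the levels of Adm and Ndrg1 was not tested. Of the other 8 genes Vegfa alone was highest in that library, at 197 CPM both there and in cKO replicate 1.

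**Figure D2:**
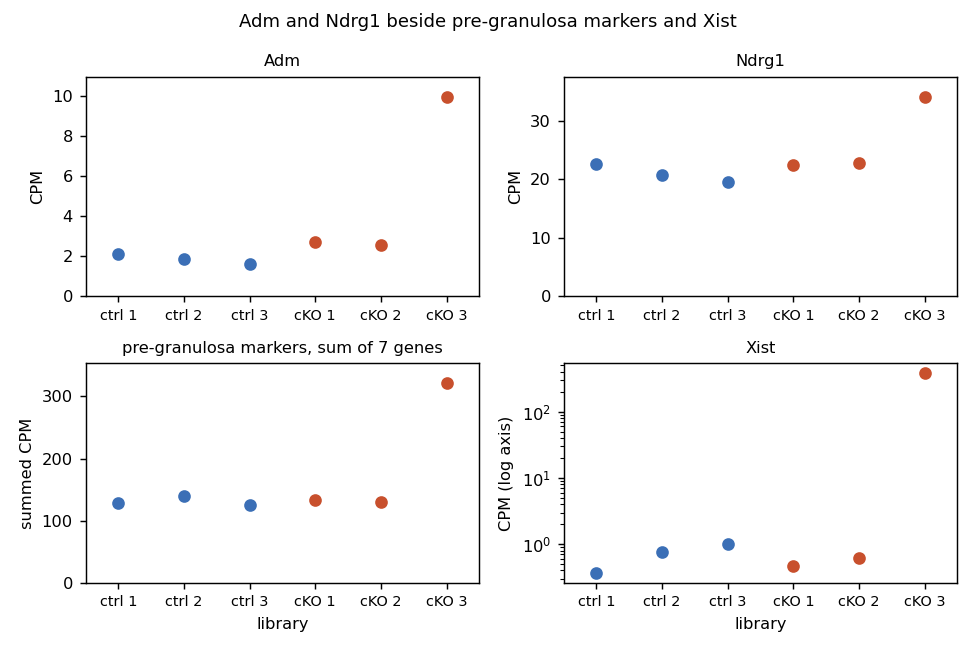
Levels of Adm, Ndrg1 and Xist (CPM; log axis for Xist) and the summed CPM of 7 pre-granulosa markers in each library, control in blue and cKO in orange; each point is 1 library. The library of cKO replicate 3 is the highest in all panels, at 9.92 CPM for Adm and 379 CPM for Xist.

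To show which other genes had the pattern of Adm, the member of lowest p in edgeR (Ndrg1 in DESeq2 and Vegfa in limma-voom), its log2 CPM was compared with that of 11535 tested genes with a mean of at least 5 CPM. The most similar were Ifnar1 (an interferon receptor subunit; Pearson r 0.998 over 6 samples), Drp2 (a dystrophin-related protein; 0.994) and Kdm3a (a histone demethylase and itself a HIF target; 0.993). Each was highest in cKO replicate 3. For Drp2 that library held 46.8 CPM, where the other libraries held 17.5 to 22.3 CPM. A correlation above 0.95 was shared by 133 genes. As that library lies far from the others for Adm, these correlations describe mainly that single library. None was computed without it.

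Bnip3 and Ankrd37 belong to the intracellular part of the response. Bnip3 (chromosome 7, 138890836 to 138909506, minus strand), which encodes a mitochondrial receptor for mitophagy, was at 24.1, 26.7 and 27.2 CPM in control samples. It was at 27.8, 21.5 and 24.5 CPM in cKO samples. The groups overlapped, with the highest and the lowest library both in the cKO group. Its estimate was -0.08 on the log2 scale (SE 0.101, edgeR FDR 0.778), and it was 0.0038 without cKO replicate 2.

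Ankrd37 (chromosome 8, 45996908 to 45999850, minus strand) encodes an ankyrin repeat protein and is among the sharper HIF targets in many cell types. It was at 3.51, 3.17 and 3.10 CPM in control samples and at 4.91, 3.11 and 4.11 CPM in cKO samples. Both cKO replicates 1 and 3 lay above the controls, and cKO replicate 2 lay among them. The estimate was 0.32 (log2, SE 0.199, edgeR FDR 0.560), with a 95% interval of 0.917-fold to 1.70-fold, so that a change of moderate size could not be resolved at this level of 57 to 197 counts. Without cKO replicate 1 it was 0.16.

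Car9 (carbonic anhydrase IX, a cell surface enzyme of pH control that is close to silent in most normal tissues; chromosome 4, 43507026 to 43513725, plus strand) had 22 to 40 counts per library. It was at 1.35, 0.770 and 0.952 CPM in control samples and at 0.973, 0.834 and 1.21 CPM in cKO samples. The highest and lowest libraries were both controls. For Car9 edgeR gave 0.03 on the log2 scale (SE 0.299, FDR 0.983), with a 95% interval of 0.639-fold to 1.62-fold, the widest of the 10 genes after that of Adm. Its sign turned in 3 of the 6 fits that left out single samples, and in DESeq2 without cKO replicate 3.

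**Figure D3:**
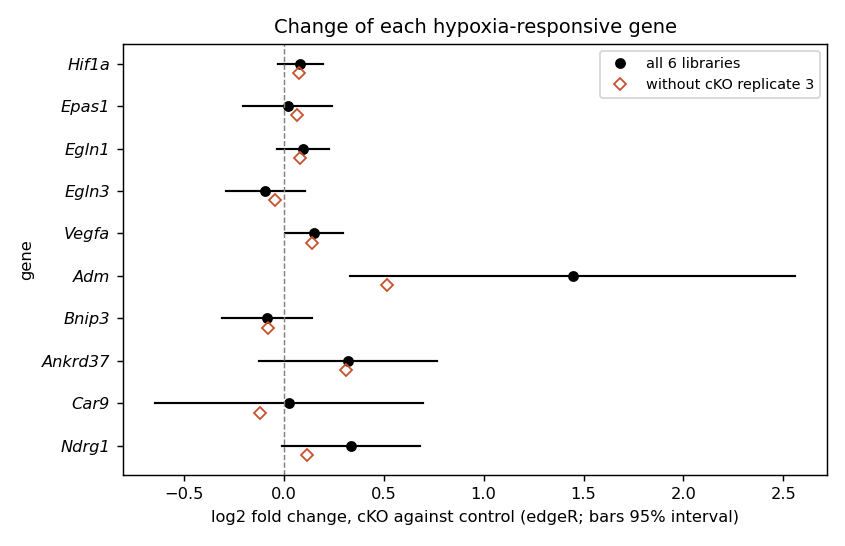
Log2 fold change of each hypoxia-responsive gene in cKO against control testes (edgeR; black points, all 6 libraries, bars 95% intervals) and the estimate without cKO replicate 3 (open orange diamonds). All intervals but those of Vegfa and Adm include 0, and Adm moves from 1.45 to 0.51 without that library.

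The core of the DNA element that HIF binds reads ACGTG or GCGTG. Both were searched on both strands in the RefSeq promoter windows of build GRCm38.p6, which hold 300 bases around each start listed there. Of the 10 genes, 8 had a window there (9 windows, with 2 starts for Vegfa). All 8 genes held either core, in 8 of the 9 windows, as did 43.8% of 32851 windows of all genes. ACGTG was in 7 of the 9 windows (7 genes; 19.6% of all windows), and GCGTG in 5 of the 9 (5 genes; 32.4%). Both cores hold a CpG, and base composition was not matched here. A match describes letters and not bound factor, and such elements can also lie far outside these windows.

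The 160 bases before the start are shown for the 5 target genes that held a core within them, since they place the core letters closest to where transcription begins. In that shorter window 6 of the 8 genes held either core, in 6 of the 9 windows, as did 29.8% of the windows of all genes. Hif1a, which is not shown, was the other gene with matches, at 3, and Egln3 and both starts of Vegfa had 0. The Hif1a window, bases 73907707 to 73907866, lies inside the gene coordinates given above and not at their start. Capitals mark ACGTG and GCGTG on the strand of the gene, or CACGT and CACGC where the core is on the other strand. Where ACGTG on both strands overlaps it reads CACGTG, which is also an E-box, and GCGTG on both strands overlaps in Ankrd37.
Bnip3, chr7:138909507-138909666, minus strand: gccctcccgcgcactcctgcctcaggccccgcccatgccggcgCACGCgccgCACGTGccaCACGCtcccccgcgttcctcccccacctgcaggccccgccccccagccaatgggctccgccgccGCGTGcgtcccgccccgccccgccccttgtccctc
Egln1, chr8:124949255-124949414, minus strand: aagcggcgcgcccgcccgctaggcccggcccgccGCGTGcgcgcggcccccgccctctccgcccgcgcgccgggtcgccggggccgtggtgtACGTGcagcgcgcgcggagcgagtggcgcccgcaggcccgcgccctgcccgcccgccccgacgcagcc
Ankrd37, chr8:45999851-46000010, minus strand: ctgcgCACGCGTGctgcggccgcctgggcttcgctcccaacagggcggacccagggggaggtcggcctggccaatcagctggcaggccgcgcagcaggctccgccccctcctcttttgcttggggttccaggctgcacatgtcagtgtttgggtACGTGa
Car9, chr4:43506866-43507025, plus strand: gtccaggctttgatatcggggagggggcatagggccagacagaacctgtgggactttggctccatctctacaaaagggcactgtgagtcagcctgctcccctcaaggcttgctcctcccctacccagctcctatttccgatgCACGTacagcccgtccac
Adm, chr7:110627497-110627656, plus strand: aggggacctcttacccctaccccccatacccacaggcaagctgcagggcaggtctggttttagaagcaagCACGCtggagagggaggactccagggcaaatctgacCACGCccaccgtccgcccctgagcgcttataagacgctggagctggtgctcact
Bnip3 held the most matches of the sequences shown, with 5, and its window was 80.6% G and C. Ankrd37 had 3 and Egln1 had 2, the latter in a window of 86.9% G and C. Adm held 2 copies of GCGTG and no ACGTG, while Car9 held 1 ACGTG match, on the other strand and close to its start.

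Levels of different genes were compared as CPM per kilobase of exon, with exon lengths from GENCODE M21. Each length joined the exons of all transcripts of a gene there, whereas the counts were made on RefSeq genes. Levels, order and ratios between genes depend on this choice, and no other length was tried. Hif1a was the most abundant, at 60.3 ± 1.97 CPM per kilobase (SD, n = 3) in control and 63.9 ± 1.46 (SD, n = 3) in cKO testes. Vegfa followed, at 40.8 ± 3.41 and 45.3 ± 1.12 CPM per kilobase (SD, n = 3 each). Egln1 was at 21.0 ± 0.160 and 22.4 ± 0.957 CPM per kilobase (SD, n = 3 each). Next came Epas1 and Bnip3, whose libraries overlapped in level, then Egln3, which overlapped neither neighbour. Ndrg1, at 2.97 to 5.17 CPM per kilobase, overlapped Ankrd37, at 2.01 to 3.19. Adm, at 1.01 to 6.13, overlapped both only through cKO replicate 3, and its other 5 libraries, at 1.01 to 1.68, were all below Ankrd37. Car9 was the lowest, at 0.334 to 0.588 CPM per kilobase. The Hif1a transcript exceeded that of Epas1 by a ratio of 4.84 ± 0.620 (SD, n = 3) in control and 5.04 ± 0.476 (SD, n = 3) in cKO testes (exact permutation p 0.6).

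The genes around the 10 in the pathway were then examined from lists chosen with earlier results of these data known. All 18 HIF subunits and regulators were tested, including Hif3a (the third alpha subunit gene), hydroxylases, ARNT partners, the von Hippel-Lindau complex and coactivators. Egln2, a hydroxylase, is also in the next list. Both edgeR and DESeq2 called 0 of the 18. Their median log2 fold change was 0.03 (0.02 without cKO replicate 3), with 11 higher and 7 lower, where 49.1% of all genes were higher. Of these, 1 passed an unadjusted edgeR p of 0.05. This was Cited2, whose product competes with HIF for its coactivators, at 90.2, 73.7 and 75.8 CPM in control and 96.7, 101 and 86.8 CPM in cKO samples. Its groups overlapped, and edgeR gave 0.25 on the log2 scale (SE 0.0893, FDR 0.380). Hif3a, chosen here for its role after its values were seen, was at 66.2 ± 7.82 CPM in control and 68.7 ± 4.43 CPM in cKO testes (SD, n = 3 each), with overlapping groups. Vhl, the substrate receptor for hydroxylated HIF and chosen here for its role after its values were seen, was at 52.7 ± 2.39 CPM in control and 53.4 ± 1.39 CPM in cKO testes (SD, n = 3 each).

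Of 30 further genes listed as HIF targets outside glycolysis, 29 were tested. edgeR called 0, with 6 genes at an unadjusted p under 0.05, all higher in cKO testes, where 5.56% of all genes were higher at that level. This count and the counts of higher and lower genes, like those for glycolytic targets below, include cKO replicate 3. They were not made without it. The median log2 fold change was 0.12 (0.09 without cKO replicate 3), with 20 higher and 9 lower, where 49.1% of all genes were higher. DESeq2 called 1, Bhlhe41, which encodes a transcriptional repressor that also acts in the circadian clock. Bhlhe41 was at 20.0, 17.4 and 14.9 CPM in control and 25.5, 23.3 and 32.6 CPM in cKO samples. All cKO samples were above the controls, and the estimate was 0.65 on the log2 scale (SE 0.142, edgeR FDR 0.377, DESeq2 FDR 0.00469). Without cKO replicate 3 the DESeq2 FDR of Bhlhe41 was 0.174 and its edgeR log2 fold change 0.50.

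Glycolytic HIF targets had a median of 0.16 over 19 tested genes (0.15 without cKO replicate 3), with 17 higher, where 49.1% of all genes were higher. edgeR called 0, with 7 higher and 1 lower at an unadjusted p under 0.05 (5.56% and 5.80% of all genes), and DESeq2 called 3, Ldha, Pfkl and Eno1. Ldha, which encodes the subunit of lactate dehydrogenase that favours lactate production, was at 271, 317 and 248 CPM in control and 402, 326 and 418 CPM in cKO samples. Its estimate was 0.45 on the log2 scale (SE 0.109, edgeR FDR 0.377, DESeq2 FDR 0.00469). Without cKO replicate 3 DESeq2 called none of the 3. The DESeq2 log2 fold change then went from 0.46 to 0.39 for Ldha (FDR 0.232), from 0.28 to 0.21 for Pfkl and from 0.31 to 0.28 for Eno1 (FDR 0.477 each), with 1 cKO sample fewer in the test.

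The ligands and receptors next to Vegfa and Adm gave 0 calls by edgeR and DESeq2 among 13 tested of 14 genes, with a median of 0.06. The gene of lowest p was Vegfb, a related ligand, at 34.1, 32.3 and 33.0 CPM in control and 36.1, 37.7 and 39.6 CPM in cKO samples (log2 fold change 0.19, SE 0.0645, edgeR FDR 0.377). It was the 1 gene of this list at an unadjusted edgeR p under 0.05. Without cKO replicate 3 the log2 fold change of Vegfb was 0.16 (unadjusted edgeR p 0.0759). Kdr, the main receptor of VEGF-A and chosen here for its role after its values were seen, was at 151 ± 2.85 CPM in control and 161 ± 12.5 CPM in cKO testes (SD, n = 3 each).

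**Figure D4:**
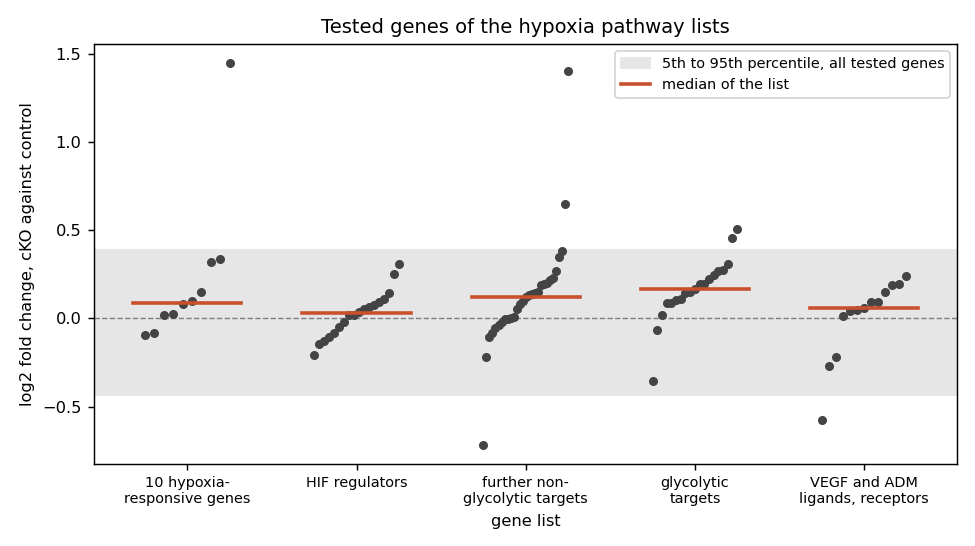
Log2 fold changes (edgeR, cKO against control) of the tested genes in the 10 hypoxia-responsive genes and 4 related lists, sorted within each list; each point is 1 gene, orange bars are list medians and the grey band spans the 5th to 95th percentile of all tested genes, from -0.43 to 0.38. Medians lie between 0.03 and 0.16, and most points fall within the band.

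Levels of cell type markers differed between the libraries. From these counts alone, fewer cells of a type cannot be told apart from less RNA per cell in whole testes. For germ cells, the authors counted stained cells in whole testes and reported significantly fewer in cKO than in control testes at E12.5. The summed level of 10 germ cell markers was 514 to 851 CPM in control and 265 to 548 CPM in cKO samples, with all 10 lower (0 called by edgeR, 8 at an unadjusted p under 0.05, 2 called by DESeq2) and none at 0. Endothelial markers summed to 770 to 871 CPM in control and 757 to 884 CPM in cKO samples, with 5 of 10 higher. Of these 10, 1 was at an unadjusted edgeR p under 0.05, Pecam1 (edgeR FDR 0.377). Pecam1 was lower in every cKO sample, at 119 to 126 CPM in control and 104 to 110 CPM in cKO samples. Sertoli markers, 8 genes, summed to 1598 to 2047 CPM in control and 1537 to 2079 CPM in cKO samples, so the labelled tissue carried its defining genes in every library. Stress genes, which can move with dissection, had a median of 0.19 over 9 genes, with 1 at an unadjusted edgeR p under 0.05, and a median of 0.42 without cKO replicate 3. They summed to 178 CPM in cKO replicate 1 and 137 to 163 CPM in the other libraries. The part of these differences in the levels of the hypoxia-responsive genes was not tested.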

How the data were processed

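Gene counts of 6 E12.5 testis samples were used. The deposited values were raw counts per gene: the authors prepared TruSeq stranded mRNA libraries, aligned read pairs to mm10 with STAR (2.5 in the submitters' processing notes) and counted them on RefSeq genes with featureCounts (Subread 1.5.0-p1) in reverse-stranded mode. Groups and replicate numbers came from the sample titles. Nothing states that the pools came from separate litters, so p-values measure the spread between these samples.

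Counts were tested with edgeR 4.0.16 in R 4.3.3 (filterByExpr with a minimum count of 10, TMM, quasi-likelihood F-test, all 6 samples, no covariates), with Benjamini-Hochberg adjustment over all 15577 tested genes. A gene with an adjusted p (FDR) below 0.05 is termed called. The SE came from the F statistic, and 95% intervals from the SE. A prior count of 2 was added for log2 CPM. DESeq2 1.42.0, which the authors used, and limma 3.58.1 (voom) were alternatives, with RLE size factors, no filter, a filter that kept genes reaching a CPM of 1 in 3 samples, a block for replicate number, and each sample left out. DESeq2 without cKO replicate 3 was chosen after seeing the data. The tests were tested on 1 set of simulated counts with known changes, in which the share of unchanged genes among the calls was above the nominal FDR with each tool, most with DESeq2.

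The members and lists were chosen with earlier results of these data known. All members are named, as are the gene of lowest p and any called gene of each related list, and the 3 genes most like the member of lowest p. No pair of libraries within a group agreed within sampling noise. Exons of 5 members overlap a gene on the opposite strand, and the counting used strand. Exon lengths came from GENCODE M21 (GRCm38, the same assembly as mm10), and 8 of the 10 members were matched by symbol to RefSeq promoters. Each library's total sets its precision: 3 counts equal 0.0679 to 0.185 CPM.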

Additional observations from a re-analysis of the deposited data

How the results depend on the processing

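The number of hypoxia-responsive genes called was 0 under every alternative run, and so was that of HIF regulators and of VEGF and adrenomedullin ligands and receptors. With DESeq2, 1 further HIF target and 3 glycolytic targets were called where edgeR called 0. Over all genes edgeR called 6, DESeq2 called 111 and, without cKO replicate 3, 14, and edgeR with the replicate number as a block called 3. Leaving out single samples gave 2 to 8 called genes. The cause was not tested. Samples that share a replicate number did not deviate together (correlations of -0.20, -0.27 and -0.13 for numbers 1 to 3), so the numbers were not taken as pairs, and the block changed no call among the hypoxia-responsive genes.

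The median of the 10 genes stayed above 0, between 0.08 and 0.15 without single samples. Hif1a, Vegfa, Egln1, Ankrd37, Adm and Ndrg1 stayed higher and Egln3 lower in all alternatives. Epas1 (-0.075 to 0.10), Bnip3 (-0.18 to 0.0038) and Car9 (-0.17 to 0.22) changed sign without single samples, and Car9 was at -0.14 with DESeq2 without cKO replicate 3. Adm ranged from 0.51 to 1.77. Car9 was left out by the filter of CPM of at least 1. Depth limited Car9, with 22 to 40 counts per library, and Adm and Ankrd37 in control replicate 1, with 34 and 57 counts.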
